A study of Ovis aries with 10 samples.

Results

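The 5 probes oar-miR-17-5p, oar-miR-106a, oar-miR-106b, oar-miR-19b and oar-miR-25 were taken by name from the 152 miRNA probes of a custom ovine array. They measure products of the miR-17-92 cluster and of its paralogs, the 106a-363 and 106b-25 clusters. Lung tissue came from 5 female Merino sheep of 9 months, numbered 2, 3, 6, 7 and 10, and a fibrotic and a normal caudal segment of each animal were hybridised, giving 10 arrays with 5 segments per group. Per the study's methods, fibrosis was induced in 1 caudal segment by bleomycin delivered through a bronchoscope in a pair of doses, the other caudal segment received saline, and tissue was collected at week 4. The normal group is therefore the saline-infused lung of the same animals and not untreated lung, and the 5 sheep had been selected for severe fibrosis.

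The miR-17-92 cluster is a polycistronic miRNA gene that is transcribed as 1 precursor and driven by MYC and E2F factors, and its loss in mice impairs lung growth. Its paralogs arose by duplication, so products of different clusters fall into shared seed families, a seed being the stretch near the 5′ end of a miRNA that pairs with its targets. MiR-17-5p, miR-106a and miR-106b have the same seed and repress cell cycle inhibitors such as CDKN1A. MiR-19b belongs to the miR-19 family, the main oncogenic component of the cluster. MiR-25 belongs to the miR-25/92 family, which represses the pro-apoptotic gene BCL2L11. Seed and cluster thus cut across each other: miR-106b and miR-25 share a precursor and differ in seed, whereas miR-17-5p and miR-106a share a seed and come from different chromosomal loci.

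All 5 hairpins matched a single gene of the RefSeq annotation of the sheep assembly ARS-UI_Ramb_v3.0. MIR17 and MIR19B were neighbours less than 100 kb apart, and both lay inside the annotated protein-coding gene LOC132657304. MIR106B and MIR25 were neighbours as well, and both lay inside MCM7, a gene for a DNA replication licensing factor. MIR106A had no other member beside it. In other mammals the 106a-363 cluster carries a further miR-19b hairpin with the same mature product, so a miR-19b probe cannot be assigned to 1 cluster. Another 12 products of the same clusters or seed families, among them miR-18a, miR-20a, miR-92a and miR-93, were looked for by probe name and had no match, so they were not analysed here.

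The values are background-corrected intensities on a linear scale, and values under 1 were raised to 1 before the log2 transform used for testing. The summed miRNA intensity lay between 138979 and 146225 over the arrays, while the mean log2 intensity of the 49 control probes above 1 on every array ran from 7.59 to 9.85. The lowest value of any member was 403, so none was near that floor, and precision is limited by the number of arrays. Series of 5 values run in the order sheep 2, 3, 6, 7 and 10. In sheep 2 and 3 the labels and the study's text name the left segment as fibrotic. For sheep 6, 7 and 10 the right segment is the fibrotic one by the labels but the saline-infused one by the text, and the labels were followed. Where the direction of a member's mean change, or of a difference between members, differs with all left segments coded as fibrotic, that value is given beside it. In whole tissue, fewer cells of a type and less miRNA per cell cannot be told apart.

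No member passed the test of fibrotic against normal segments. In the limma fit over all 152 miRNAs, 0 of the 5 members had an adjusted p under 0.05, and 0 of the 152 miRNAs did, a background of 0%. At an unadjusted p under 0.05 the members again numbered 0, against 18 of 152 miRNAs (11.8%). No member had 1 direction in all 5 sheep, which 21 of 152 miRNAs (13.8%) had, and for every member the intensities of the 2 groups overlapped, as they did for all but 2 miRNAs (1.32%). The members had a median of -0.082 in their log2 fold change, 2 of them being higher and 3 lower in fibrotic tissue, beside a median of -0.021 over all miRNAs, of which 70 were higher and 81 lower. This tally depended on the coding of sides and on the scaling. With all left segments coded as fibrotic 5 members were higher (median 0.12), in sheep 2 and 3 alone 4 were higher (median 0.10), with control probe centring 4 were higher (median 0.13), and with miRNA median centring 5 were lower (median -0.24).

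MiR-17-5p, the founding member of the family, was lower in the fibrotic segment of 4 sheep and higher in 1. Its normal segments read 519, 640, 685, 684 and 659, and the fibrotic segments of those animals 686, 552, 645, 562 and 561. The normal segment of sheep 2 held the lowest of the 10 values and its fibrotic segment the highest, so that this animal alone ran against the others. Group means came to 637 ± 68.8 (SD, n = 5) for normal and 601 ± 60.6 (SD, n = 5) for fibrotic tissue. The log2 fold change was -0.082 with a standard error of 0.15, a 95% interval from -0.46 to 0.29 and a limma adjusted p of 0.826. Without sheep 2 it was -0.20, and it turned to 0.13 after centring each array on its control probes, a scaling that raised the median of all miRNAs from -0.021 to 0.19. It was 0.16 with all left segments coded as fibrotic, and 0.096 in sheep 2 and 3 alone.

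MiR-106a, which carries the same seed and in mammals differs from miR-17-5p at few bases, had nearly the same course over the arrays. Its normal segments read 619, 688, 783, 772 and 775, and the fibrotic segments of those animals 821, 661, 683, 594 and 647. Sheep 2 was again the only animal with the higher value in the fibrotic segment. The mean was 727 ± 72.0 (SD, n = 5) for normal and 681 ± 84.5 (SD, n = 5) for fibrotic tissue, and the log2 fold change was -0.097 with a standard error of 0.16 (95% interval -0.49 to 0.29, limma adjusted p = 0.778). This change was -0.22 without sheep 2, 0.11 after centring on control probes, 0.24 with all left segments coded as fibrotic and 0.17 in sheep 2 and 3 alone. Whether the probes of miR-17-5p and miR-106a also bind each other's target was not tested, so the split of signal between such near-identical miRNAs is uncertain.

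MiR-106b, the third member with this seed, spread much more widely than the other 2. Its normal segments read 527, 433, 1047, 474 and 910, and the fibrotic segments of those animals 739, 478, 926, 707 and 693. It was higher in the fibrotic segments of sheep 2, 3 and 7 and lower in those of sheep 6 and 10. Both segments of sheep 6 lay above both segments of sheep 2, 3 and 7. The mean was 678 ± 280 (SD, n = 5) for normal and 709 ± 159 (SD, n = 5) for fibrotic tissue. Its log2 fold change was 0.13 with a standard error of 0.19 (95% interval -0.35 to 0.60, limma adjusted p = 0.764), and it was -0.028 after median centring of the miRNAs, which lowered the median of all miRNAs to -0.18. It was 0.26 without sheep 10, and it was 0.014 without sheep 7.

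MiR-19b had the widest range of the 5, from 403 to 1135, or 2.82-fold. Its normal segments read 611, 495, 1135, 416 and 988, and the fibrotic segments of those animals 868, 403, 845, 771 and 784. The fibrotic segment was higher in sheep 2 and 7 and lower in sheep 3, 6 and 10. The means of 729 ± 316 (SD, n = 5) for normal and 734 ± 190 (SD, n = 5) for fibrotic tissue were nearly equal, while the changes of single animals ran from -0.43 in sheep 6 to 0.89 in sheep 7. The log2 fold change was 0.068 with a standard error of 0.25 (95% interval -0.56 to 0.70, limma adjusted p = 0.888). This sign rested on single animals, since it was -0.042 without sheep 2 and -0.14 without sheep 7. Centring the arrays on the miRNA median also brought it below 0, to -0.087, as did centring on oar-miR-103, the reference of the study's qPCR, to -0.023.

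MiR-25 was the member with the lowest p and the largest mean change. Its normal segments read 865, 936, 656, 907 and 814, and the fibrotic segments of those animals 698, 807, 697, 650 and 695. It was lower in the fibrotic segment of 4 sheep, and sheep 6 was the exception. Sheep 6 also had the lowest normal value, below 4 of the 5 fibrotic ones. The mean was 835 ± 110 (SD, n = 5) for normal and 709 ± 58.4 (SD, n = 5) for fibrotic tissue. The log2 fold change was -0.23 with a standard error of 0.13 (95% interval -0.55 to 0.098), an unadjusted p of 0.135 and an adjusted p of 0.518 in limma, and flipping the signs of the 5 changes in an exact two-sided permutation test gave p = 0.125, where 0.0625 is the smallest p that 5 sheep allow. Its change lay between -0.31 and -0.17 when any 1 sheep was left out. It came to -0.018 after centring on control probes and to 0.020 with all left segments coded as fibrotic. Of the 152 miRNAs, 90 had a larger mean change in either direction.

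**Figure D1:**
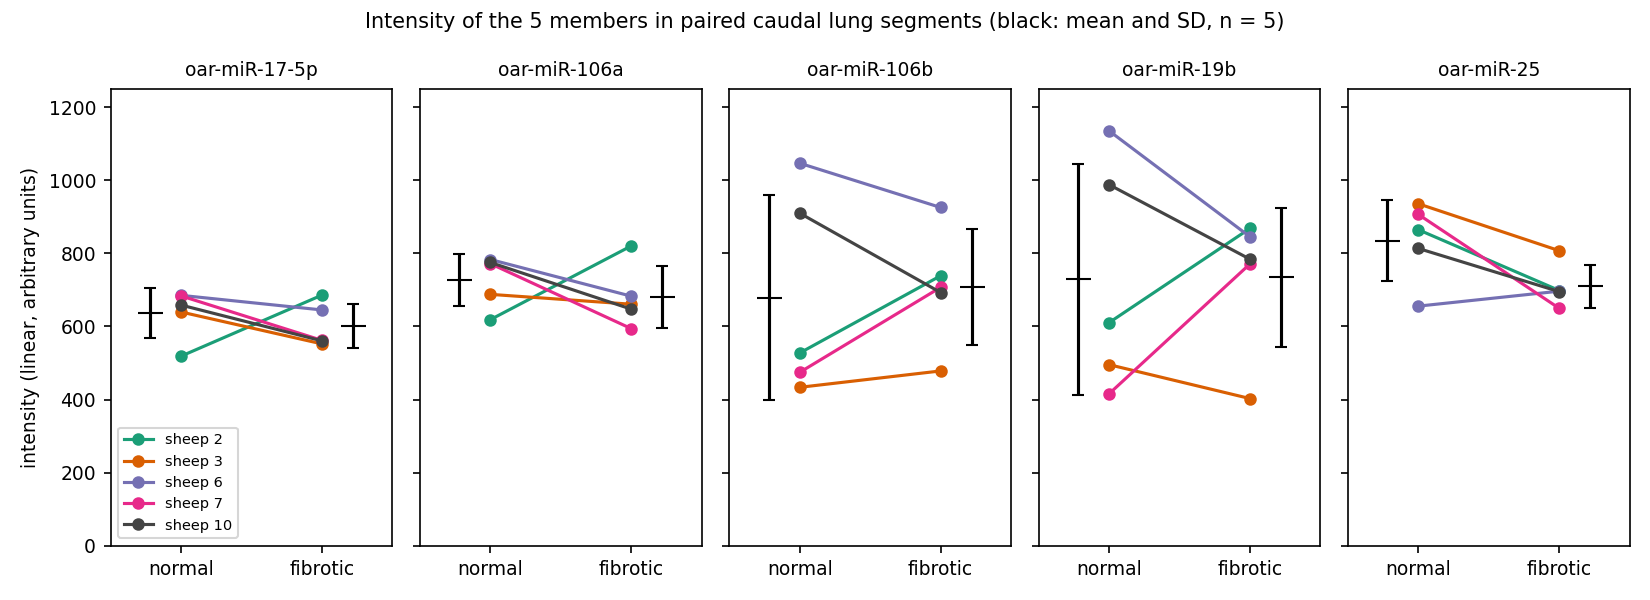
Intensity on a linear scale of each of the 5 members in the normal and the fibrotic caudal segment of 5 sheep, with 1 coloured line per sheep and the mean ± SD (n = 5) of each group in black. For miR-17-5p and miR-106a the line of sheep 2 alone slopes upward, for miR-25 that of sheep 6 alone, and the points of miR-106b and miR-19b spread from 403 to 1135.

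The members differed in how widely they spread. Over the 10 arrays the log2 intensity had a standard deviation of 0.15 for miR-17-5p, 0.16 for miR-106a, 0.20 for miR-25, 0.45 for miR-106b and 0.52 for miR-19b. After both segments of each sheep were averaged, the standard deviation between the 5 animals was 0.066 for miR-17-5p, 0.050 for miR-106a and 0.13 for miR-25, but 0.43 for miR-106b and 0.46 for miR-19b. The standard deviation of the log2 change over the 5 sheep was 0.21 for miR-25, 0.28 for miR-17-5p, 0.30 for miR-106a, 0.42 for miR-106b and 0.59 for miR-19b. In the exact two-sided permutation test by sign flips, the other 4 members had p between 0.50 for miR-106a and miR-106b and 0.8125 for miR-19b.

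**Figure D2:**
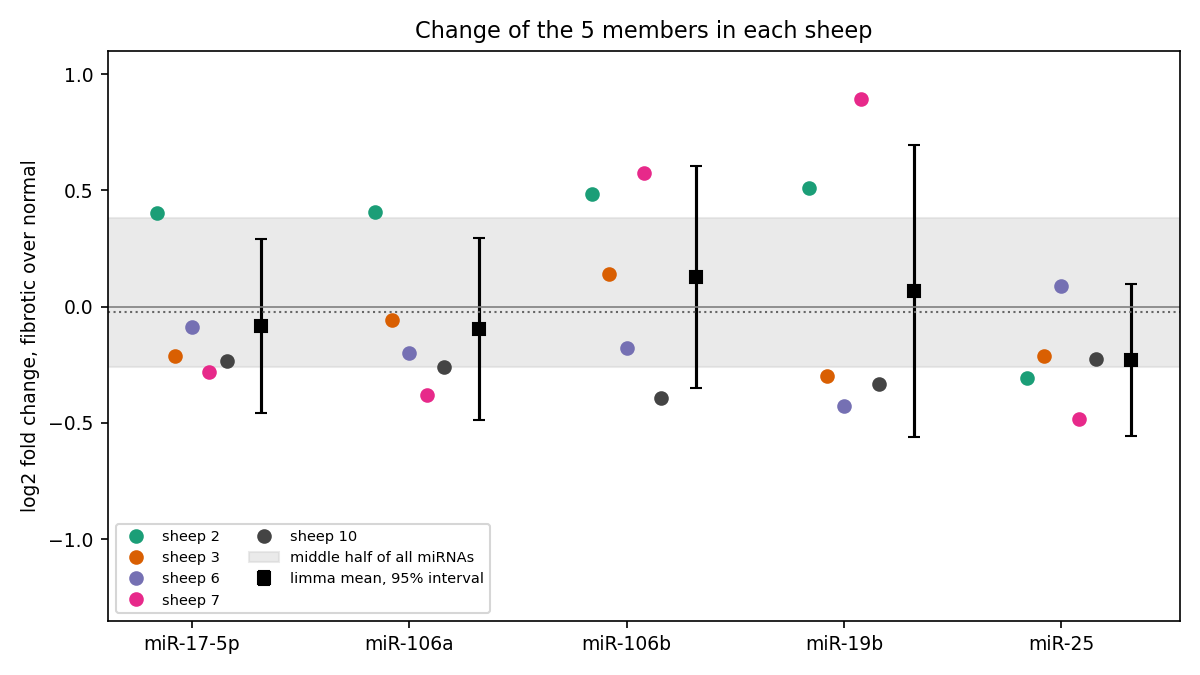
Log2 fold change of the fibrotic over the normal segment for each member, with a coloured point per sheep and a black square with its 95% interval for the limma mean. The grey band spans the interquartile range of the mean changes of all 152 miRNAs and the dotted line their median of -0.021, and every interval of a member includes 0.

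Members were next compared within the same array, where a constant scaling of the array has no effect. Of the 6 pairs compared, 3 share a seed and 3 were taken as sharing a cluster. For miR-106a and miR-19b the shared cluster is that of other mammals, since MIR106A had no other member beside it in the sheep annotation. None passed the test of a different change (exact two-sided permutation test by sign flips, adjusted p = 0.875 for each of the 6 pairs, where the design cannot reach 0.05). MiR-17-5p and miR-106a, which share a seed across clusters, had the same sign of change in all 5 sheep. Their changes differed by 0.015 ± 0.11 (SD, n = 5) on the log2 scale, with a 95% interval from -0.12 to 0.15. With all left segments coded as fibrotic the mean difference was -0.078. Its unadjusted exact sign-flip p was then 0.0625, the smallest that 5 sheep allow.

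MiR-106b, the third seed mate, had a different sign of change from them in 2 of 5 sheep. MiR-17-5p minus miR-106b was -0.21 ± 0.41 (SD, n = 5) with a 95% interval from -0.72 to 0.31, and miR-106a minus miR-106b was -0.22 ± 0.43 (SD, n = 5) with an interval from -0.75 to 0.30. In sheep 3 and 7, miR-106b was higher in the fibrotic segment while miR-17-5p and miR-106a were lower. The gap was widest in sheep 7, at -0.86 for miR-17-5p and -0.95 for miR-106a against miR-106b. Without sheep 7 the mean gaps were -0.046 and -0.041, and with all left segments coded as fibrotic they were 0.034 and 0.11.

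The products of the MCM7 locus, miR-106b and miR-25, had changes of opposite sign in 4 of 5 sheep and of the same sign only in sheep 10. MiR-106b minus miR-25 came to 0.79, 0.35, -0.26, 1.06 and -0.17 over the animals. The mean was 0.35 ± 0.58 (SD, n = 5), with a 95% interval from -0.36 to 1.07 and an unadjusted exact sign-flip p of 0.3125. It was the largest of the 6 pairs by the labels, but it was 0.18 without sheep 7 and 0.10 with all left segments coded as fibrotic, a coding under which 3 other pairs had a larger mean.

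Of the other cluster pairs, miR-17-5p minus miR-19b was -0.15 ± 0.59 (SD, n = 5) with an interval from -0.89 to 0.59, and miR-106a minus miR-19b was -0.17 ± 0.63 (SD, n = 5) with an interval from -0.95 to 0.62. Each pair had the same sign of change in 4 of 5 sheep. Sheep 7 was the exception, with gaps of -1.17 and -1.27, and without it the means were 0.11 for miR-17-5p and 0.11 for miR-106a against miR-19b. With all left segments coded as fibrotic the means were 0.14 and 0.22 in the same order.

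Averaged by seed family, the changes of miR-17-5p, miR-106a and miR-106b came to 0.43, -0.043, -0.15, -0.028 and -0.30, with a mean of -0.018 ± 0.27 (SD, n = 5). Only sheep 2 stood above 0. Averaged by cluster, miR-17-5p and miR-19b had a mean of -0.0069 ± 0.36 (SD, n = 5), miR-106a and miR-19b, paired as in other mammals, had -0.014 ± 0.35 (SD, n = 5), and miR-106b and miR-25 had -0.051 ± 0.16 (SD, n = 5). Each of these averages lay within its spread between sheep. With all left segments coded as fibrotic the seed family had a mean of 0.17, and the clusters had means of 0.087, 0.13 and 0.072 in the same order. Leaving out sheep 10 also turned the sign of these 4 means, to 0.052 for the seed family and 0.062, 0.056 and 0.014 for the clusters. The scaling mattered as well. Control probe centring gave 0.19 for the seed family and 0.20, 0.20 and 0.16 for the clusters. Centring on the 75th percentile of each array and quantile normalization also turned all 4, whereas centring on the miRNA median or on miR-103 kept all 4 below 0.

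The whole profiles over the 10 arrays were also compared, as the root mean square (RMS) difference of the log2 intensities after each probe's own mean was taken off. This is a description, since the arrays are pairs from 5 animals. The measure is not scaled for spread, so probes that vary little come out close whether or not they move together. MiR-17-5p, miR-106a and miR-25 spread less over the arrays than miR-106b and miR-19b. The closest members were miR-17-5p and miR-106a, with an RMS difference of 0.069, and each was the nearest of 58 other miRNAs with a mean log2 intensity of at least 5 to the other. The next closest were miR-106b and miR-19b, with 0.17, which share neither seed nor cluster, and each was again the nearest of the 58 to the other. MiR-17-5p took place 14 of 58 for miR-106b, at 0.40, and miR-106a place 17, at 0.41. Both distances are near the standard deviation of miR-106b itself over the arrays, 0.45. An unlike course therefore cannot be told apart here from the low spread of these seed mates. MiR-25, the cluster mate of miR-106b, took place 35, at 0.59. MiR-25 was closer to miR-106a and miR-17-5p, at 0.24 for each, than to miR-106b or to miR-19b, which was the most distant at 0.64. For miR-25 with miR-106a and miR-17-5p, a like course cannot be told apart from the low spread of all 3.

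**Figure D3:**
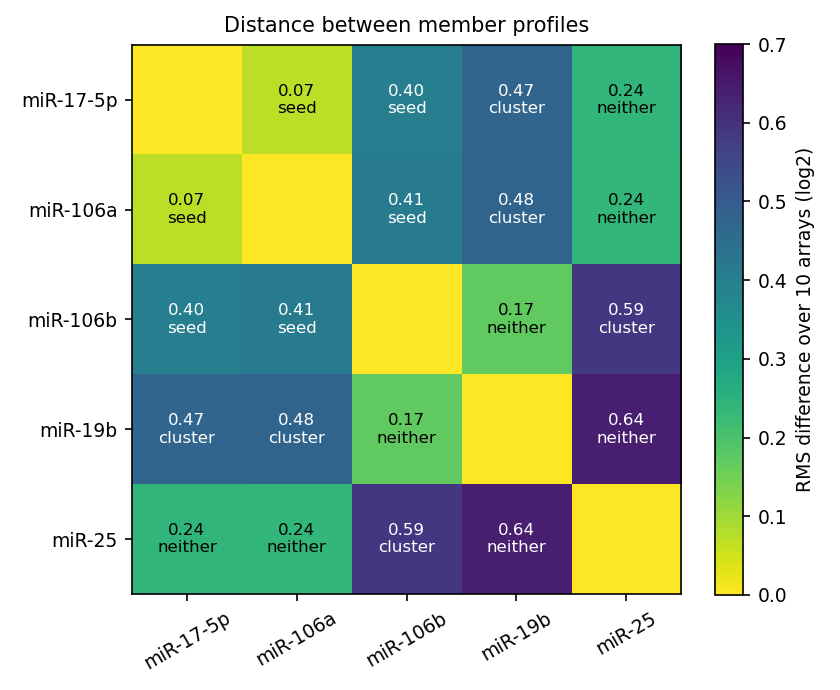
RMS difference between the log2 profiles of the members over 10 arrays, each centred on its own mean, with the value and what the pair shares (seed, cluster or neither) in each cell. The cluster of miR-106a with miR-19b is that of other mammals. Small values in light colour mark miR-17-5p with miR-106a (0.07) and miR-106b with miR-19b (0.17), and the seed mates and the cluster mate of miR-106b lie at 0.40 or above. The measure is not scaled for the spread of a probe.

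Outside the 5 members, among 54 miRNAs with a mean log2 intensity of at least 5, miR-17-5p was closest to miR-26a at 0.14, miR-103 at 0.15 and miR-191 at 0.15. MiR-106a was closest to the same 3, with miR-26a at 0.14, miR-191 at 0.15 and miR-103 at 0.16. The nearest to miR-106b were miR-22-3p at 0.25, miR-29a at 0.27 and miR-29b at 0.29, and those to miR-19b were miR-29a at 0.28, miR-29b at 0.28 and miR-27a at 0.34. MiR-25 lay closest to miR-99a at 0.13, miR-191 at 0.18 and miR-23b at 0.21. The other group set beside the members, miR-16b, miR-103 and miR-107, had mean changes of 0.042, 0.091 and 0.12 in limma, and none of the 3 had an unadjusted p under 0.05.

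The level of miR-19b and miR-106b moved with the control probes of the array. The 5 arrays with the highest control probe mean, both segments of sheep 6 and of sheep 10 and the fibrotic segment of sheep 2, were the 5 with the highest miR-19b and held 5 of the 6 highest values of miR-106b. MiR-19b was lowest, at 403, in the fibrotic segment of sheep 3, where the control probe mean was also lowest at 7.59, and highest, at 1135, in the normal segment of sheep 6, where it was highest at 9.85. Between segments, the control probe mean differed by 0.53, -0.31, -0.93, 0.074 and -0.42 (fibrotic minus normal). The change of miR-19b had the sign of the control probes in 5 of 5 sheep, which held for 3 of 152 miRNAs (1.97%). This was so in 4 of 5 sheep for miR-17-5p, miR-106a and miR-106b, and in 2 of 5 for miR-25. A match in 4 of 5 was also seen outside the members, as in miR-16b, miR-27a and miR-29b. The share of all miRNAs with it was not counted. Whether the members had such a match more often than other miRNAs therefore cannot be read from these values.

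The sizes did not follow one another in sheep 7, where the difference was 0.89 for miR-19b and 0.58 for miR-106b while the control probe mean differed by 0.074 and the mean of the 39 brighter control probes, with a mean log2 intensity of at least 5, by 0.31. MiR-25 had its highest values, 936 and 907, in the normal segments of sheep 3 and 7, which were among the 3 arrays with the lowest control probe means. The array with the lowest of all, the fibrotic segment of sheep 3, was only in place 5 for miR-25, and its lowest value, 650, lay at place 7 of the control probe means, in the fibrotic segment of sheep 7. With the control probe mean as a covariate, which was added after these values were seen, the log2 fold changes were 0.25 for miR-19b, 0.25 for miR-106b, -0.29 for miR-25, -0.027 for miR-106a and -0.020 for miR-17-5p, and the adjusted p of limma lay at 0.357 or above for all 5. The part of the array signal in the differences between the members was not tested further.

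**Figure D4:**
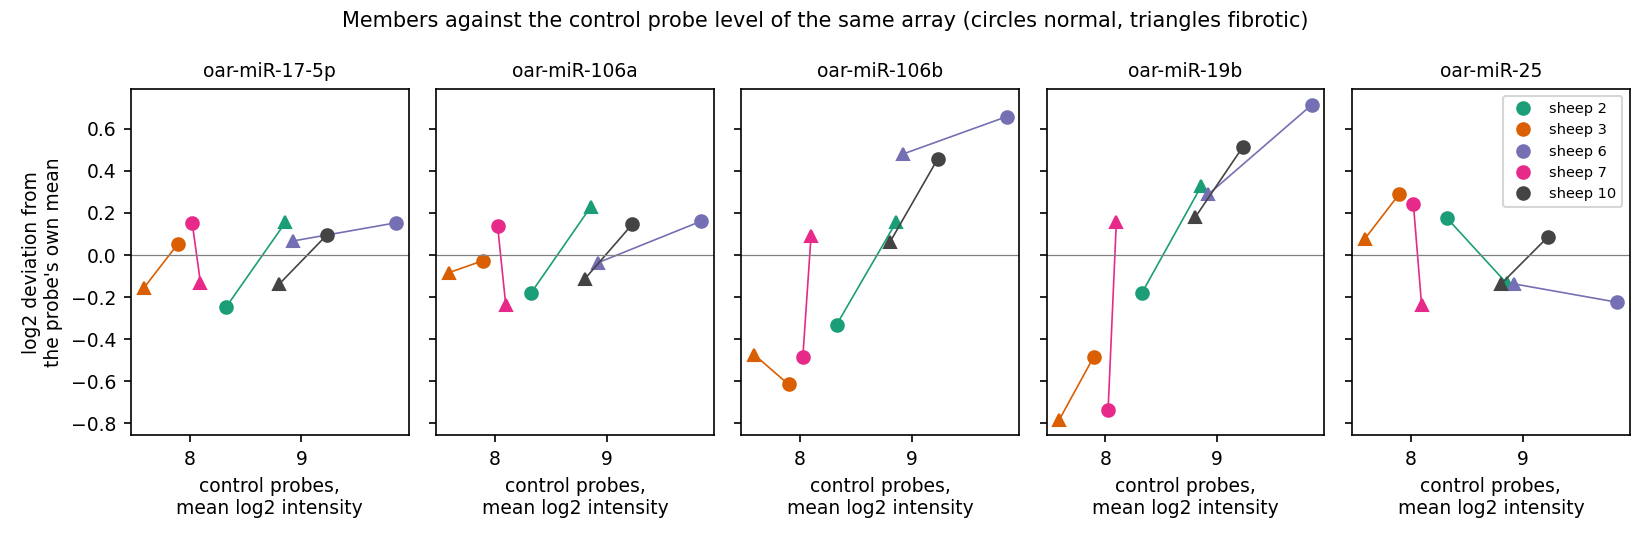
Log2 deviation of each member from its own mean over the 10 arrays against the mean log2 intensity of 49 control probes on the same array, with circles for normal and triangles for fibrotic segments and a line joining the segments of a sheep. MiR-19b and miR-106b climb from the lower left to the upper right, whereas miR-17-5p and miR-106a stay within 0.3 of their mean, and miR-25 is highest on a pair of arrays with low control probes but lowest on another array near them.

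Of 19 marker miRNAs of other lung cell types, 8 matched a probe. The 3 epithelial markers miR-200a, miR-200b and miR-200c were higher on average in the fibrotic segments, with a summed intensity between 2400 and 4319 in normal and between 3496 and 6712 in fibrotic segments. The 3 miRNAs listed for smooth muscle and fibroblasts, miR-143, miR-199a-3p and miR-21, were also higher on average. Their sums ran from 10047 to 35901 and from 15704 to 32962. The mean log2 fold change was only 0.056 for miR-143, against 0.49 for miR-199a-3p and 0.73 for miR-21, which the study describes as induced by TGF-β signalling. MiR-133 of striated muscle, at 35.2 to 162 in normal and 23.5 to 49.3 in fibrotic segments, and miR-150 of lymphocytes, at 445 to 2107 and 309 to 1985, were lower on average. None of the 8 had a limma adjusted p under 0.05, no endothelial marker had a match, and no matched marker was at the floor. The part of cell composition in the members' values was not tested.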

How the data were processed

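Total RNA of 10 caudal lung segments, paired by sheep, was labelled with 1 dye and hybridised to a custom ovine array of 152 miRNA and 55 control probes. Each value the authors deposited is an intensity after background correction, 1 for each probe on an array that carried replicate spots, and the software is not given in the sources used here. The methods describe a log2 transform, but the deposited intensity is linear. Values were set to at least 1, log2 transformed and fitted with limma 3.58.1 (lmFit, eBayes) in R 4.3.3 with terms for condition and sheep, the animal as a block, with Benjamini-Hochberg adjustment over 152 miRNAs and no filter. Groups came from the sample labels.

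The segments are paired because they come from 1 animal. Across miRNAs, the deviations of both segments from their group means correlated at 0.34, 0.90, 0.40, -0.67 and 0.56 for sheep 2, 3, 6, 7 and 10. Single values were tested with two-sided exact sign-flip permutation tests. Named miRNAs were the 5 members, other products of their clusters, the 3 closest miRNAs to each member and miR-103, and marker miRNAs. The members and lists were chosen with earlier results of these data known. No mature or probe sequence was used here, and seeds and roles are background.

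Alternatives were 5 other scalings, a higher floor, a filter on dim miRNAs, an intensity trend, no block, side as a covariate, leaving out sheep, the other coding of sides and the methods' test. The methods analyse each sheep separately without naming the units of their test, and the deposited table holds 1 value per segment, so that test was run here over sheep.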

Additional observations from a re-analysis of the deposited data

Results flagged for a closer look

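In each group of 5 values, the gap of the most extreme value to its neighbour was set against the whole range of the group. Of 23 groups examined, 4 passed the 95% limit of Dixon, where chance gives about 1 in 20 for a single group. The groups are not independent, since the changes and differences are built from the same intensities. Both flags of miR-17-5p include the normal segment of sheep 2, so an excess of outliers cannot be read from this count. For miR-17-5p, the log2 intensity of 9.02 in the normal segment of sheep 2 was far below the other normal segments, and the change of 0.40 in the same sheep stood apart from the others. For miR-19b, the log2 intensity of 8.65 in the fibrotic segment of sheep 3, the array with the lowest control probe mean, was far below the other fibrotic segments. The difference in change of miR-106a minus miR-19b, -1.27, stood apart in sheep 7.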

How the results depend on the processing

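With 20 alternatives for each member, the direction was kept in 17 for miR-17-5p and miR-106a, 19 for miR-106b and miR-25 and 16 for miR-19b, and no member reached an adjusted p under 0.05 in any (smallest 0.306). Several of them could not turn a direction, because they leave the mean change of each member as it was. These are the higher floor, the filter on dim miRNAs, no block, the intensity trend and both forms of the methods' test. The count of miRNAs at an adjusted p under 0.05 was 0 in all 20. The count at an unadjusted p under 0.05, 18, was 7 with a floor of 32, 9 among miRNAs with a mean log2 of at least 5, 8 with no replicate block for the paired segments, 3 with every left segment coded as fibrotic, and 9 paired and 6 unpaired with the methods' t-test. That test gave 1 miRNA paired and 2 unpaired at the study's threshold, 0 after Benjamini-Hochberg adjustment and none of the members. Without 1 sheep the count ran from 6 to 26. No other call changed without the block.

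Control probe centring gave 0.13 for miR-17-5p and 0.11 for miR-106a, miRNA median centring gave -0.028 for miR-106b and -0.087 for miR-19b, and centring on miR-103 gave -0.023 for miR-19b. The share of miRNAs higher in fibrotic segments was 46.1%, but 69.1% with control probe centring and 32.2% with miRNA median centring, which move every mean change alike. With every left segment coded as fibrotic, the changes were 0.16 for miR-17-5p, 0.24 for miR-106a and 0.020 for miR-25. The differences were then -0.078 for miR-17-5p minus miR-106a, 0.034 for miR-17-5p minus miR-106b, 0.11 for miR-106a minus miR-106b, 0.14 for miR-17-5p minus miR-19b and 0.22 for miR-106a minus miR-19b. In sheep 2 and 3 alone they were 0.096 for miR-17-5p, 0.17 for miR-106a, -0.079 for miR-17-5p minus miR-106a and 0.070 for miR-106a minus miR-19b. With side as a covariate, miR-17-5p minus miR-106a was -0.00067. The cause of these turns was not tested.

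Without 1 sheep, the change of miR-17-5p ran from -0.20 to -0.032, of miR-106a from -0.22 to -0.027, of miR-106b from 0.014 to 0.26, of miR-19b from -0.14 to 0.19 and of miR-25 from -0.31 to -0.17. The differences ran from -0.0090 to 0.057 for miR-17-5p minus miR-106a, -0.30 to -0.046 for miR-17-5p minus miR-106b, -0.31 to -0.041 for miR-106a minus miR-106b, 0.18 to 0.51 for miR-106b minus miR-25, -0.27 to 0.11 for miR-17-5p minus miR-19b and -0.27 to 0.11 for miR-106a minus miR-19b.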
